A study of Mus musculus with 12 samples.

Results

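The genes described here encode the proteasome and the immunoproteasome in mouse liver. They are the protein-coding genes whose symbol begins with Psma, Psmb, Psmc, Psmd, Psme, Psmf or Psmg followed by a number, with at least 1 CPM (counts scaled to a common library size) in at least 3 of the 12 libraries. Of 50 genes with such a symbol, 49 met the rule, out of 13334 protein-coding genes that met the same limit on CPM. The gene left out was Psmb11, the catalytic subunit of the thymus proteasome, which was at 0 counts in all 12 libraries. By role, the members were 8 alpha ring subunits, 4 beta ring subunits without a catalytic site, the 3 constitutive catalytic subunits, the 3 immunoproteasome catalytic subunits, 6 ATPases and 3 other subunits of the 19S base, 8 subunits of the 19S lid, 4 assembly chaperones of the core and 3 of the base, and 5 activators or inhibitors of the core. A further pair, Psmc3ip and Psme2b, matched by symbol only. Psmc3ip encodes a protein of meiotic recombination that binds Psmc3, and Psme2b is nearly identical to Psme2, so that its counts are uncertain.

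The libraries came from livers of C57BL/6J mice in 4 groups of 3. NICD1/Akt mice received a hydrodynamic tail vein injection (HTVi) of plasmids for NICD1, the active intracellular part of Notch1 (10 µg), and myr-AKT, a membrane-bound active AKT (10 µg), with the Sleeping Beauty transposase (0.8 µg), which inserts the transgenes into the genome of transfected cells. Their tissue was labelled as cholangiocarcinoma (CCA) tumor and taken 2 weeks (libraries 33, 34 and 35) or 3 weeks (libraries 1, 2 and 3) after HTVi. The methods give male mice aged 5 weeks at injection. Controls were livers of wild-type (WT) mice that had no injection, of the 2-week set (libraries 30, 31 and 32) and the 3-week set (libraries 10, 11 and 12). Whether each library stands for its own mouse is not given in the sources used here, and p-values therefore measure the spread between libraries, which may be technical. Total counts were 13136892 to 19594839 per library.

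The libraries were checked against their labels first. Akt1 stood at 74.9 to 86.3 CPM in 5 of the 6 controls and at 271 to 930 CPM in the 6 NICD1/Akt libraries. The library labelled control 32 had 363 CPM of Akt1, above libraries 33 and 34. Notch1 was 101 CPM in the library labelled control 32, 42.6 to 51.03 CPM in the other controls and 95.8 to 450 CPM in NICD1/Akt livers. The Y-linked gene Ddx3y was at 54.5 CPM in the library labelled control 32 and between 57.03 and 127 CPM at 3 weeks, but did not exceed 0.379 CPM in libraries 30, 31, 33, 34 and 35. Because of this, the main values at 2 weeks are also given without that library, and stage cannot be told apart from sex and other differences between the 2 sets of libraries. The summed level of 6 hepatocyte genes (Alb, Ttr, Apoa1, Serpina1c, Cps1 and Cyp2e1) was 102087 to 105566 CPM in controls of 3 weeks and 26406 to 39398 CPM after NICD1/Akt, and that of 5 biliary genes (Krt19, Krt7, Epcam, Sox9 and Spp1) was 73.6 to 117 CPM against 3693 to 4330 CPM. At 2 weeks the groups overlapped in both sums: the hepatocyte genes had 89910 to 157363 CPM in controls and 58039 to 140026 CPM after NICD1/Akt, and the biliary genes 62.7 to 1888 CPM and 1082 to 4441 CPM, where the highest control was the library labelled control 32. Fewer cells of a type and less RNA per cell cannot be told apart in bulk tissue.

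The proteasome degrades proteins that carry ubiquitin chains. Its 20S core is a barrel of alpha and beta rings, and the beta ring holds the catalytic sites Psmb6 (beta1), Psmb7 (beta2) and Psmb5 (beta5). The 19S particle binds and unfolds the substrate, with a base that holds the ATPases Psmc1 to Psmc6 and a lid that removes ubiquitin. In cells that receive interferon gamma, and constitutively in many leukocytes, Psmb9 (beta1i), Psmb10 (beta2i) and Psmb8 (beta5i) take the places of the constitutive catalytic subunits during assembly. The resulting immunoproteasome favours peptides that fit MHC class I, and PA28, formed by Psme1 and Psme2, is an interferon-responsive activator of the core. The factor Nfe2l1 raises the genes of the constitutive subunits when proteasome capacity falls short.

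Sequences upstream of the start were searched because the subunits moved in separate directions, as described below. RefSeq (GRCm38.p6) promoters were found for 41 of the 49 members, with no entry for Psmb7, and the 250 bases before the start were searched on both strands. The letters were TTCNNNGAA (a GAS-type site), GAAANNGAA (an IRF-type site) and TGACNNNGC (an ARE-type site, bound by Nfe2l1 and related factors). The GAS-type letters were in 2 of the 41 members (Psmb8 and Psmg1) and in 7.02% of 32851 promoters. IRF-type letters were in 3 members (Psmb3, Psmd4 and Psmd9) and in 7.13% of promoters. ARE-type letters were in 5 members (Psmb5, Psmb6, Psmc6, Psmd12 and Psmd9), or 12.2%, and in 10.2% of promoters, so the share among members was near that of all promoters. None of the 3 sets of letters was in the windows of Psmb9 and Psmb10. The sequences of Psmb8, of its constitutive counterpart Psmb5, of Psmb6, and of Psmd12, the subunit with the lowest fold change at 3 weeks, are shown with matches in capitals, 5′ to 3′ on the strand of the gene. Each printed window holds 1 match, so none overlaps another. Stretches annotated as exon in GENCODE M21 were left out, and since the window of Psmb8 lies in such an exon, 30 bases around its match are given.
Psmb8, chr17:34198088-34198117, plus strand: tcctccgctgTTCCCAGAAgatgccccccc
Psmb5, chr14:54618023-54618245, minus strand: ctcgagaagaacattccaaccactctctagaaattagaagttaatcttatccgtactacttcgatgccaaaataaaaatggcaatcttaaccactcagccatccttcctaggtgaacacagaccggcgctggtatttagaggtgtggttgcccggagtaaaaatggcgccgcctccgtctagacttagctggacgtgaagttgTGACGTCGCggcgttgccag
Psmb6, chr11:70525107-70525356, plus strand: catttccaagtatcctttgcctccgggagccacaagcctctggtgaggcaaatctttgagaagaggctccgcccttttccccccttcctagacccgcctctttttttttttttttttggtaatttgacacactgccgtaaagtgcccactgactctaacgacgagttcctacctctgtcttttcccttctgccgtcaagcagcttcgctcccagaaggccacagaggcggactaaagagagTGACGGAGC
Psmd12, chr11:107479278-107479483, plus strand: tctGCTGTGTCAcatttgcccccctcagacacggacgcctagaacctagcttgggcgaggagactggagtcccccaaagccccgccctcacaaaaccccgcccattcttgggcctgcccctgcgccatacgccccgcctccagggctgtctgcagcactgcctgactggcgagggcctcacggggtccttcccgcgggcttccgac
The match begins 97 bases before the start in Psmb8, 47 in Psmb5, 9 in Psmb6 and 247 in Psmd12, where it lies on the opposite strand. Psmb9 and Tap1, a subunit of the peptide transporter into the endoplasmic reticulum, lie head to head on chromosome 17, with 226 bases between their starts (34187330 on the minus strand and 34187556 on the plus strand).

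At 3 weeks, with TMM scaling, the catalytic subunits of the immunoproteasome did not move together. Psmb8 was 44.7, 49.7 and 49.9 CPM in NICD1/Akt livers and 27.02, 21.2 and 24.9 CPM in controls. Psmb9 was 17.8, 23.8 and 22.4 CPM against 9.38, 11.5 and 8.26 CPM. For both genes every NICD1/Akt library lay above every control. Psmb8 rose by a log2 fold change of 0.98 ± 0.11 (SE, n = 3 per group, edgeR adjusted p = 8.0e-05) and Psmb9 by 1.13 ± 0.17 (edgeR adjusted p = 3.5e-04). Psmb10, in contrast, was 19.97, 21.4 and 20.4 CPM in NICD1/Akt livers and 31.6, 31.6 and 28.7 CPM in controls, every control lying above. Its log2 fold change was -0.57 ± 0.09 (edgeR adjusted p = 5.2e-04), a value among those of the constitutive subunits. The direction of Psmb8 and Psmb9 was the same under all scalings, while that of Psmb10 turned to 0.13 when libraries were scaled by their size alone.

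The constitutive catalytic subunits were lower at 3 weeks on the TMM scale. Psmb5 was 16.3, 15.5 and 16.5 CPM in NICD1/Akt livers and 22.7, 21.5 and 23.4 CPM in controls. Psmb6 was 84.6, 92.7 and 87.3 CPM against 111.5, 111.1 and 118.6 CPM. Psmb7 was 69.6, 70.7 and 69.3 CPM against 105.0, 111.1 and 106.9 CPM. None of the 3 genes overlapped between groups. The log2 fold changes were -0.49 ± 0.10 for Psmb5, -0.37 ± 0.09 for Psmb6 and -0.62 ± 0.08 for Psmb7 (edgeR adjusted p = 0.0018, 0.0050 and 1.8e-04), and all 3 turned positive (0.22, 0.34 and 0.08) with scaling by library size alone.

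**Figure D1:**
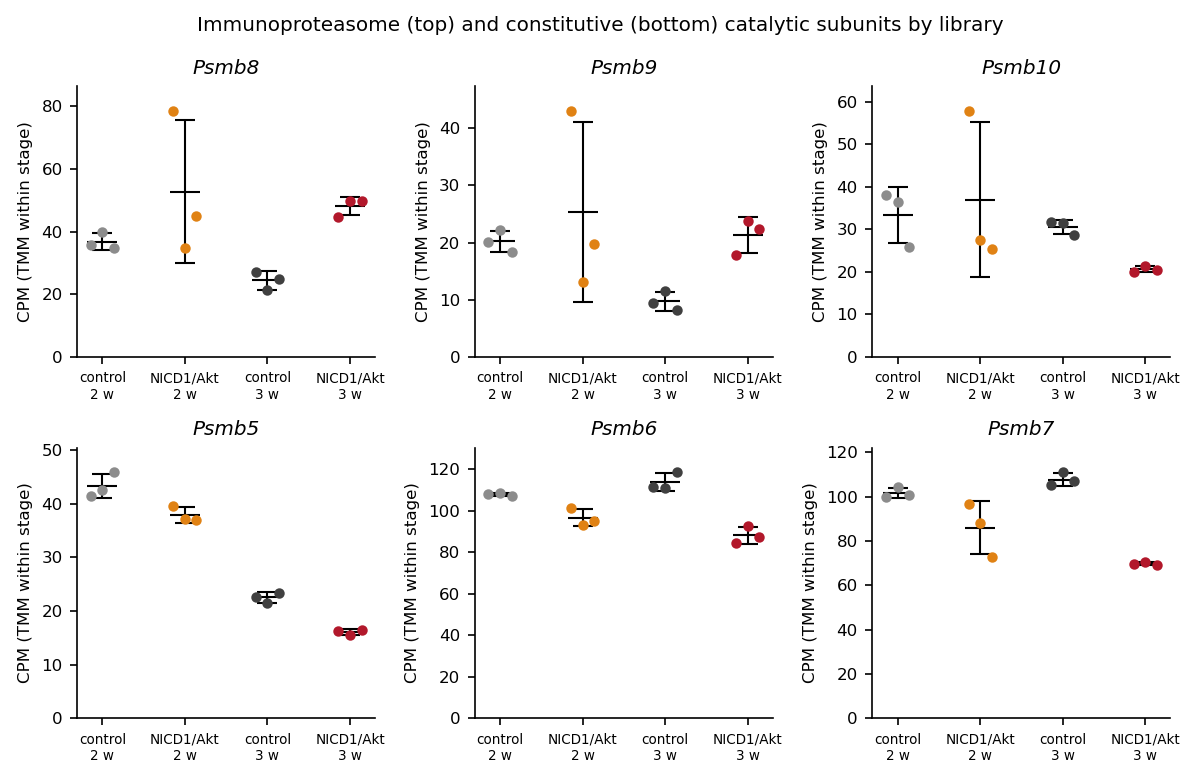
Levels of the immunoproteasome subunits (top row) and the constitutive subunits in the same place of the ring (bottom row), in CPM with TMM scaling within each stage, by group on the x axis. Points are libraries and bars are mean ± SD (n = 3). At 3 weeks Psmb8 and Psmb9 lie above the controls and Psmb10, Psmb5, Psmb6 and Psmb7 below them; with scaling by library size alone the fold changes of these 4 genes turn positive. At 2 weeks library 33 alone is high for Psmb8, Psmb9 and Psmb10, at 78.7, 43.1 and 57.9 CPM.

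Across all roles, 3 of 48 members tested at 3 weeks were higher in NICD1/Akt livers (Psmb8, Psmb9 and Psme2) and 37 were lower on the TMM scale (edgeR, adjusted p under 0.05). Among all 13408 genes tested, 38.9% were higher and 33.1% lower. The median log2 fold change was -0.43 over the members and 0.06 over all genes. By the levels alone, 7 of 49 members lay wholly above the controls and 38 wholly below, against 41.3% and 35.5% of all genes.

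How many members were higher or lower depended on the scaling. With library size alone, 24 members were higher and 0 lower, where 67.7% of all genes were higher and 9.6% lower. That setting moved the median of all genes from 0.06 to 0.77 and that of the members from -0.43 to 0.27. The median of the members minus that of all genes was -0.50 with TMM and -0.50 with library size alone. Under TMM, RLE, upper quartile and library size scaling, 40 of 48 members lay below the median of all genes. The difference of medians did depend on which genes were tested: with TMM it was -0.32 with a minimum of 10 CPM and -0.66 without a filter. Unscaled, the members took 0.286 to 0.295% of all counts in controls of 3 weeks and 0.332 to 0.388% after NICD1/Akt. The lower level of the constitutive members is therefore a statement relative to other genes, not to total counts.

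**Figure D2:**
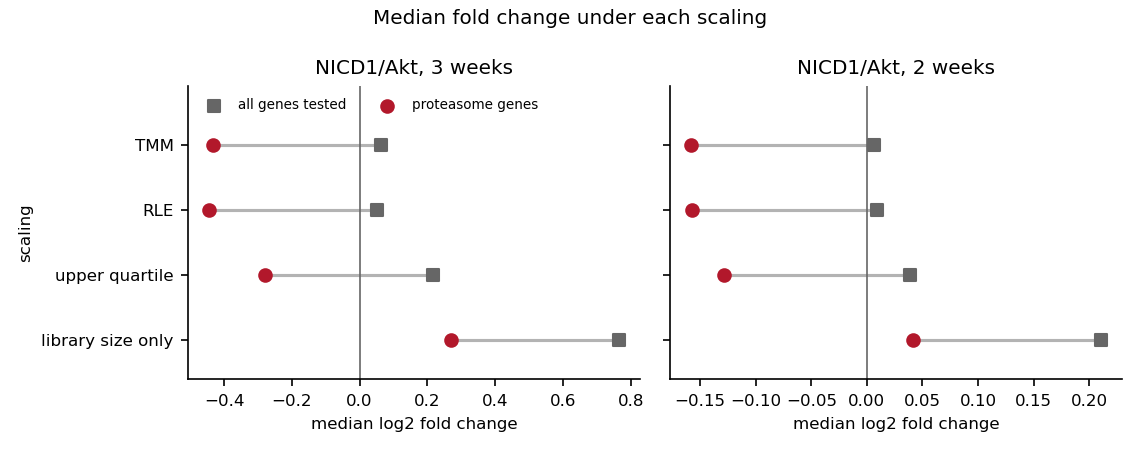
Median log2 fold change of NICD1/Akt livers against controls (x axis) over the proteasome genes (circles) and over all genes tested (squares), under 4 scalings (y axis), at 3 weeks (left) and 2 weeks (right). The distance between the medians is about the same in each row, at -0.50 for the members minus all genes with TMM at 3 weeks, while both shift to the right with library size alone.

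In the core, 7 of 7 alpha ring subunits tested at 3 weeks were lower on the TMM scale, from -0.27 for Psma2 to -0.63 for Psma4. The alpha rings form the gate of the barrel. The call of Psma2 was lost without control library 12, NICD1/Akt library 1 or NICD1/Akt library 3. It was also lost with upper quartile factors and with a minimum of 10 CPM. Psma8, a testis form of alpha4, was too low to be tested at 3 weeks, at 0.125 to 0.874 CPM. The 4 beta subunits without a catalytic site (Psmb1, Psmb2, Psmb3 and Psmb4) were lower too, within a narrow range of -0.57 to -0.48. Psmb1 was 84.8, 86.4 and 92.0 CPM in NICD1/Akt livers and 133.5, 125.5 and 132.0 CPM in controls. With scaling by library size alone, the values of these beta subunits were 0.14 to 0.22.

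In the 19S base, 6 of 6 ATPases and 3 of 3 other subunits were lower on the TMM scale. Psmc1 (-0.68) and Psmc2 (-0.64) had the lowest values among the ATPases and Psmc3 the value nearest 0 (-0.23), and all 3 turned positive with library size alone (0.03, 0.07 and 0.48). The call of Psmc3 in this direction held in 6 of 16 alternatives and in 1 of the 6 fits that left out a library, the one without NICD1/Akt library 2. That of Psmd1, another subunit of the base, was lost without NICD1/Akt library 3, with upper quartile factors and with a minimum of 10 CPM. Psmd4, a receptor for ubiquitin chains, was 62.5, 65.3 and 63.2 CPM against 103.4, 103.6 and 110.4 CPM, with a log2 fold change of -0.73 ± 0.08 (edgeR adjusted p = 8.5e-05). Its value stayed below 0 with library size alone, at -0.02, but was not called there.

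In the lid, 6 of 8 subunits were lower and 2, Psmd13 (-0.18) and Psmd8 (-0.20), were not called. The lowest value of all members was that of Psmd12, a scaffold subunit of the lid. It was 53.4, 55.3 and 51.5 CPM in NICD1/Akt livers and 100.8, 103.7 and 100.5 CPM in controls, so the groups were far apart. The log2 fold change was -0.93 ± 0.08 (edgeR adjusted p = 2.1e-05), and -0.22 with library size alone, where it was not called. Psmd11, another subunit of the lid, was 90.9, 94.2 and 90.7 CPM against 169.8, 146.5 and 158.3 CPM (-0.78 ± 0.09).

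The activators of the core were split. Psme2 (PA28 beta) was 47.4, 58.6 and 54.9 CPM in NICD1/Akt livers and 43.7, 38.7 and 44.5 CPM in controls, with a log2 fold change of 0.34 ± 0.11 (edgeR adjusted p = 0.018). That call was lost without control library 11, NICD1/Akt library 2 or NICD1/Akt library 3, at 0.26 to 0.42 over all libraries left out in turn, and in the single fit of all 12 libraries (0.22, edgeR adjusted p = 0.25). Its partner Psme1 (PA28 alpha) was 70.7, 71.5 and 70.7 CPM against 62.2, 68.4 and 68.3 CPM, above every control, but at 0.10 ± 0.08 (edgeR adjusted p = 0.30). Psme3 (PA28 gamma, a nuclear activator) and Psme4 (PA200) were lower, at -0.32 and -0.65, and so was Psmf1 (PI31), at -0.31. With library size alone, Psme3 and Psme4 turned to 0.39 and 0.05. The call of Psme3 was also lost with upper quartile factors, with a minimum of 10 CPM, against all 6 controls (-0.17) and without NICD1/Akt library 1. Psme2b, with 0.6995 to 2.94 CPM at 3 weeks, was at 0.87 ± 0.36 (edgeR adjusted p = 0.055).

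The chaperones of assembly that were called at 3 weeks were lower on the TMM scale, and the rest were not called. Among the 4 chaperones of the 20S core, Psmg1, Psmg2 and Psmg3 were lower (-0.52, -0.34 and -0.86) and Psmg4 was at 0.15 and not called. Psmg3 was low, between 2.74 and 3.57 CPM after NICD1/Akt and between 4.72 and 7.21 CPM in controls. Among the 3 chaperones of the base, Psmd9 was lower (-0.43, a call lost without control library 12, NICD1/Akt library 2 or NICD1/Akt library 3) and Psmd10 (gankyrin) was 11.6, 14.1 and 12.4 CPM against 11.2, 8.7 and 10.7 CPM, above every control but not called (0.31 ± 0.15, edgeR adjusted p = 0.082). Psmd5 was at -0.09. Leaving aside Psmb8, Psmb9, Psmb10, Psme1, Psme2, Psme2b and Psmc3ip, 36 of the 41 other members tested were lower on the TMM scale, with a median of -0.48. The genes set aside include all 3 members called higher, so that 0 of the others were higher follows from the choice. Among all genes, 38.9% were higher and 33.1% lower. With library size alone 18 of the other members were higher and 0 lower, where 67.7% of all genes were higher and 9.6% lower.

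**Figure D3:**
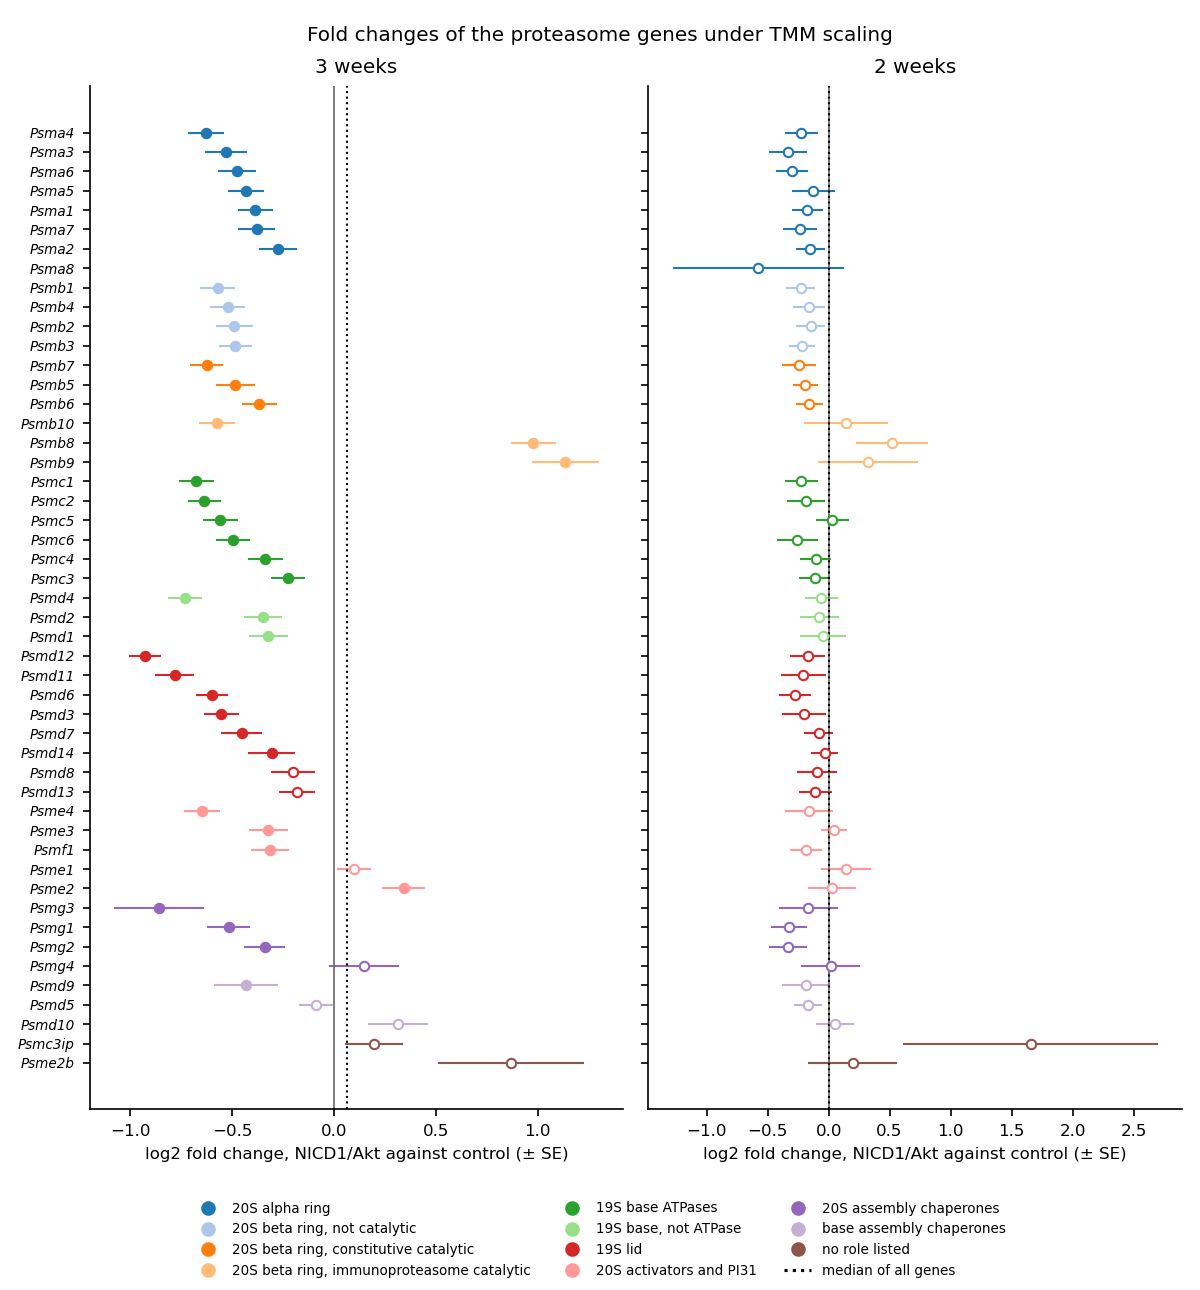
Log2 fold change ± SE of each member (y axis, grouped and coloured by role) in NICD1/Akt livers against controls (x axis, TMM scaling), at 3 weeks (left) and 2 weeks (right, with another range of the x axis). Filled circles passed an adjusted p under 0.05 in edgeR and the dotted line is the median of all genes tested. At 3 weeks most members lie to the left of that line, from -0.93 for Psmd12, and Psmb8 and Psmb9 lie to the right; at 2 weeks 0 members passed.

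Ratios of counts within a library do not depend on the scaling between libraries. Each immunoproteasome subunit was therefore set against the constitutive subunit of the same place, as log2 of the ratio of counts (each + 0.5), which is not corrected for gene length and is compared only between libraries. The Psmb8/Psmb5 log2 ratio was 1.46, 1.67 and 1.59 in NICD1/Akt livers at 3 weeks and 0.25, -0.02 and 0.09 in controls. At 2 weeks it was 0.99, -0.09 and 0.28 in libraries 33, 34 and 35, and -0.22, -0.10 and -0.39 in libraries 30, 31 and 32. The ratio was thus above every control of its stage in all 6 NICD1/Akt libraries, by very little in library 34. The difference was 1.47 at 3 weeks, a 2.76-fold ratio, and 0.63 at 2 weeks (exact permutation p = 0.1 at each stage, two-sided, the smallest that 3 against 3 allows). Over both stages it was 1.05 (exact permutation p = 0.005, the smallest of 400 arrangements, adjusted p = 0.02 over 4 ratios), and 1.01 without the library labelled control 32 (exact permutation p = 0.01).

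The Psmb9/Psmb6 log2 ratio was -2.24, -1.96 and -1.96 in NICD1/Akt livers at 3 weeks and -3.57, -3.26 and -3.84 in controls, a 2.83-fold higher ratio (exact permutation p = 0.1). At 2 weeks library 33 was high, at -1.23, and libraries 34 and 35, at -2.82 and -2.27, lay on both sides of the controls (-2.42, -2.29 and -2.54). The difference at 2 weeks was 0.31 (exact permutation p = 0.7), -0.13 without library 33 and 0.25 without the library labelled control 32. Over both stages it was 0.90 (exact permutation p = 0.035, adjusted p = 0.07 over 4 ratios). Without library 33 the value was 0.68 (exact permutation p = 0.07), and without library 2 or library 3 it was 0.88 (exact permutation p = 0.05).

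The Psmb10/Psmb7 log2 ratio was -1.80, -1.73 and -1.76 in NICD1/Akt livers at 3 weeks and -1.73, -1.81 and -1.89 in controls, and the groups overlapped. Its difference was 0.05 at 3 weeks (exact permutation p = 0.4) and 0.31 at 2 weeks (exact permutation p = 0.6), where library 33 was at -0.74 and the other 5 libraries were between -1.96 and -1.39. Over both stages it was 0.18 (exact permutation p = 0.4, adjusted p = 0.4). For PA28, the Psme1/Psme3 log2 ratio was -0.40, -0.59 and -0.51 against -0.95, -0.89 and -0.93 at 3 weeks, a difference of 0.42 (exact permutation p = 0.1). It was 0.07 at 2 weeks (exact permutation p = 0.9) and 0.25 over both stages (exact permutation p = 0.09, adjusted p = 0.12). Without the library labelled control 32, the differences at 2 weeks were 0.55 for Psmb8/Psmb5, 0.14 for Psmb10/Psmb7 and 0.0086 for Psme1/Psme3.

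**Figure D4:**
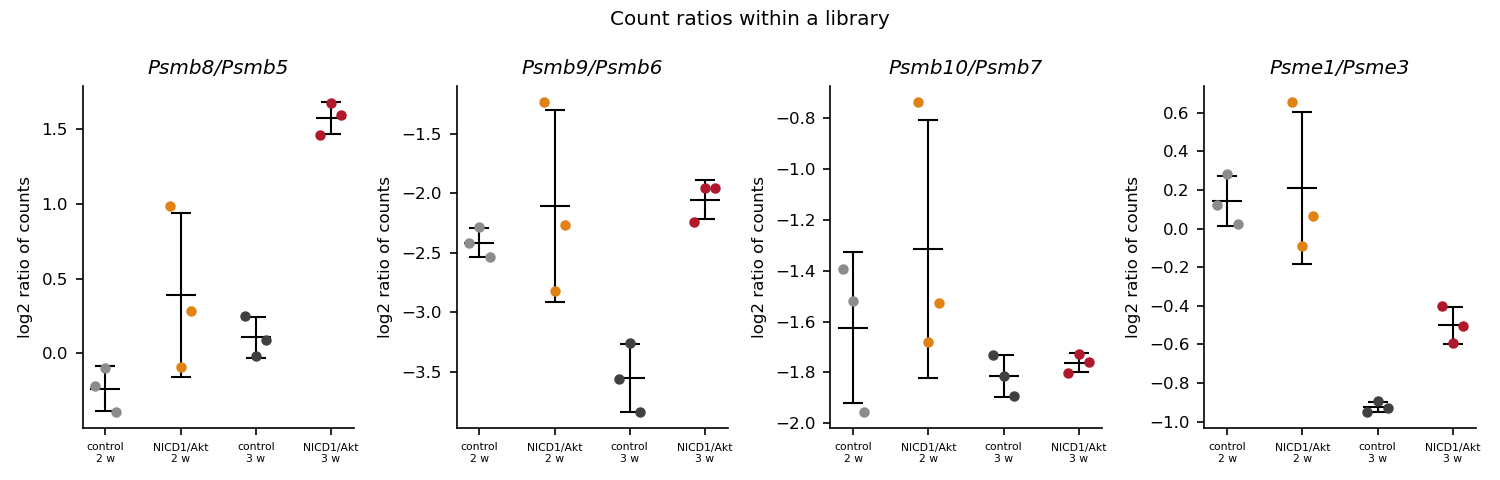
Log2 ratio of counts within each library (y axis) for 3 pairs of immunoproteasome and constitutive subunits and for PA28 alpha against PA28 gamma, by group (x axis). Points are libraries and bars are mean ± SD (n = 3). The Psmb8/Psmb5 ratio of NICD1/Akt livers lies above the controls at both stages, at 1.46 to 1.67 against -0.02 to 0.25 at 3 weeks, and the Psmb10/Psmb7 ratio overlaps at both.

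At 2 weeks 0 of 49 members were called in either direction with edgeR's quasi-likelihood test, where 0% of all 13041 genes were called. At an unadjusted p under 0.05, 0 members and 1120 genes passed with edgeR. DESeq2, limma-voom and the likelihood ratio test also called 0 members. The median log2 fold change was -0.16 over the members and 0.01 over all genes, and -0.15 over the members without the library labelled control 32. By the levels alone, 0 members lay wholly above the controls and 10 wholly below (Psma6, Psma7, Psmb1, Psmb3, Psmb5, Psmb6, Psmb7, Psmc1, Psmg1 and Psmg2), against 7.55% and 8.53% of all genes. Without the library labelled control 32, 3 members lay above both remaining controls and 20 below, against 23.9% and 21% of all genes. Psmb5, for example, was 39.6, 37.2 and 36.9 CPM in libraries 33, 34 and 35 and 41.4, 42.6 and 45.9 CPM in controls, with a log2 fold change of -0.19 ± 0.10 (edgeR adjusted p = 0.52).

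Among the NICD1/Akt livers at 2 weeks, library 33 had the highest levels of the immunoproteasome subunits. Over all genes, library 35 stood furthest from the others, with a chi-square per gene of 121 and 136 against libraries 33 and 34, which differed by 23.4. It also had the most Akt1 of the 3, at 896 CPM against 271 and 309 CPM. Psmb8 was 78.7 CPM in library 33, 34.9 CPM in library 34 and 44.9 CPM in library 35, and 35.6, 39.8 and 34.9 CPM in the controls. Psmb9 was 43.1, 13.1 and 19.7 CPM, and Psmb10 57.9, 27.6 and 25.2 CPM. The controls had 18.4 to 22.2 CPM of Psmb9 and 25.9 to 38.0 CPM of Psmb10. The log2 fold changes at 2 weeks, 0.52 ± 0.29 for Psmb8, 0.32 ± 0.41 for Psmb9 and 0.14 ± 0.35 for Psmb10 (edgeR adjusted p = 0.52, 0.72 and 0.86), rest on library 33: without it they were 0.11, -0.30 and -0.35. Without the library labelled control 32 they were 0.48, 0.25 and -0.024. Psme1 and Psme2 were also highest in library 33, at 126 and 70.6 CPM, where the other 5 libraries had 78.2 to 92.3 and 42.7 to 53.97 CPM.

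Genes of interferon gamma signalling and response were divided between libraries at 2 weeks. The list includes the receptor genes Ifngr1 and Ifngr2 and the kinase genes Jak1 and Jak2, so its counts are not of response genes alone. Of 14 genes of the list, 7 had their highest level in library 33 (Jak1, Gbp2, Gbp3, Gbp7, Igtp, Irgm1 and Cxcl9), 6 in library 35 (Irf8, Ifngr1, Ifngr2, Jak2, Cxcl10 and Ciita) and 1 in library 34 (Irf1). The GTPase gene Igtp was 293 CPM in library 33 and between 19.1 and 59.4 CPM in the remaining 5, Gbp2 was 45.3 CPM against 8.10 to 12.04 CPM, and the chemokine gene Cxcl9 was 61.6 CPM against 10.1 to 24.4 CPM. At 3 weeks, where all 3 NICD1/Akt libraries were high for Psmb8 and Psmb9, Igtp, Gbp2 and Cxcl9 were not called higher. Igtp was 15.7, 16.4 and 16.2 CPM in NICD1/Akt livers and 32.6, 26.1 and 30.1 CPM in controls (-0.88, edgeR adjusted p = 1.3e-04), and Cxcl9 was lower as well (-1.18). Ifng itself was at 0 to 0.141 CPM in the 12 libraries. Of the 14 genes at 3 weeks, 4 were higher (Ciita, Ifngr2, Ifngr1 and Irf8) and 5 lower (Igtp, Irgm1, Cxcl9, Jak1 and Jak2), with a median of 0.25, where 38.9% and 33.1% of all genes were higher and lower.

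**Figure D5:**
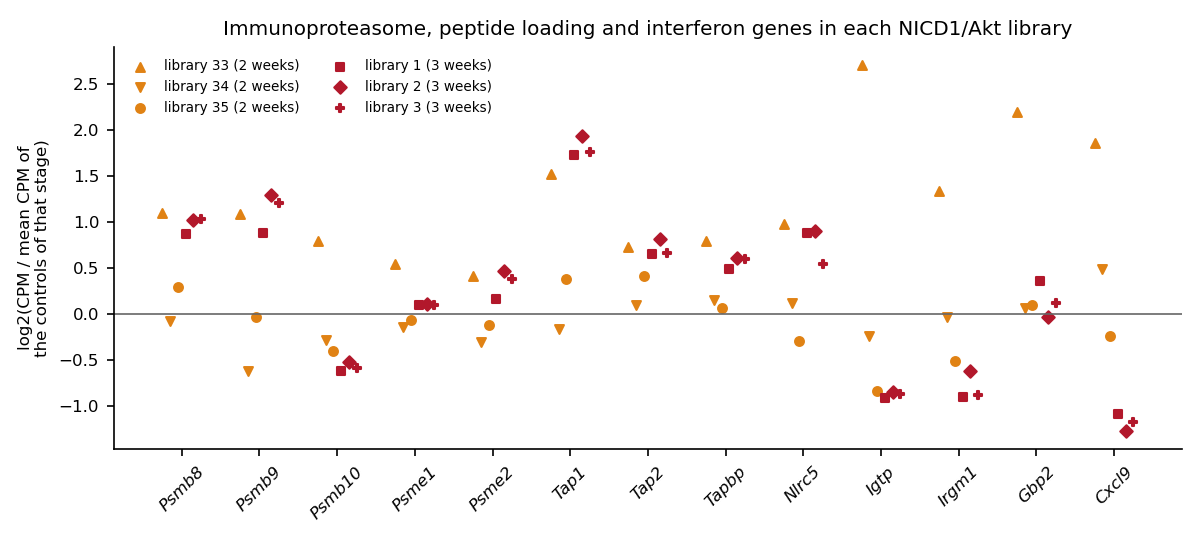
Log2 of the CPM in each NICD1/Akt library over the mean CPM of the controls of its stage (y axis), for immunoproteasome, PA28, MHC class I peptide loading and interferon response genes (x axis), with TMM scaling within the stage. The genes plotted are a selection. Tap1, Tap2, Tapbp and Nlrc5 are the peptide loading genes called higher at 3 weeks, and those called lower are left out. Igtp, Irgm1, Gbp2 and Cxcl9 all had their highest level of 2 weeks in library 33, and interferon genes called higher at 3 weeks are left out. Library 33 is above the control mean for each gene plotted, from 0.42 for Psme2 to 2.705 for Igtp. The libraries of 3 weeks are high for Psmb8, Psmb9 and Tap1 but lie below 0 for Igtp, Irgm1 and Cxcl9.

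Peptide loading of MHC class I, the step that follows the immunoproteasome, had genes called in both directions at 3 weeks. Of 10 genes, 4 were higher and 4 lower, with a median of 0.02, shares near the 38.9% and 33.1% of all genes. Tap1, whose start lies beside that of Psmb9, was 29.1, 33.4 and 29.6 CPM in NICD1/Akt livers and 10.7, 6.21 and 9.35 CPM in controls (1.81, edgeR adjusted p = 4.4e-05). Tap2, its partner in the transporter, Tapbp, which links it to MHC class I, and Nlrc5, the activator of MHC class I genes, were higher by 0.71, 0.57 and 0.78. B2m, the light chain of MHC class I, was lower (-0.78), as were Calr, Pdia3 and Erap1. The heavy chain genes H2-K1 and H2-D1 were at 0.06 and -0.02 and were not called. Between the controls of 3 and 2 weeks, 3 of the 10 genes were higher and 4 lower, against 17.4% and 20.4% of all genes. Tap1, Tapbp and Nlrc5 were lower (-1.72, -0.88 and -1.64, edgeR adjusted p = 0.0047, 0.0039 and 0.0020), and Tap2 was not called (-0.16). On the common scale of the 12 libraries, Tap1, Tapbp and Nlrc5 averaged 28.1, 111 and 14.4 CPM in NICD1/Akt livers of 3 weeks. Controls of 2 weeks averaged 28.6, 150 and 28.4 CPM.

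The immunoproteasome is abundant in leukocytes, so their markers are given beside these values. Of 9 leukocyte genes, 6 had counts high enough to be tested at 3 weeks. Of these 6, 5 were higher (Ptprc, Cd68, Adgre1, Cx3cr1 and Itgax), with a median of 1.01 over the 6, where 38.9% of all genes were higher. The summed level of the 9 genes was 27.9 to 43.7 CPM in controls of 3 weeks and 92.9 to 115 CPM after NICD1/Akt, and 62.1 to 74.3 CPM and 78.2 to 124 CPM at 2 weeks. The T cell genes Cd3e and Cd8a and the B cell gene Cd79a were at or under 1.39 CPM in every library, and the cytotoxic cell gene Nkg7 at or under 1.64 CPM. Ptprc, the pan-leukocyte gene, was 23.7, 25.3 and 23.8 CPM against 11.6, 7.26 and 15.3 CPM at 3 weeks (1.09). The part of leukocytes in the levels of Psmb8 and Psmb9 was not tested.

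Of the genes around the proteasome, those of proteasome-bound proteins were mostly lower at 3 weeks on the TMM scale. Among all genes tested, 38.9% were higher and 33.1% lower. Among 9 genes of proteasome-bound proteins, 7 were lower and 1, the importin gene Ipo9, was higher, with a median of -0.46. Adrm1, a ubiquitin receptor of the base, was 44.2, 41.8 and 39.4 CPM in NICD1/Akt livers and 95.3, 87.0 and 87.8 CPM in controls (-1.11, edgeR adjusted p = 1.3e-05). Pomp, which drives assembly of the core, was lower as well (-0.80). Nfe2l1 itself was 188, 156 and 172 CPM against 157, 156 and 151 CPM (0.15, edgeR adjusted p = 0.20), while Ddi2, the protease that activates Nfe2l1, was lower (-1.17), as were Ngly1 (-0.89) and Vcp (-0.54). Among 5 genes of ubiquitin and of the E1 enzymes that charge it, 2 were lower (Ubb and Uba1) and 0 higher. That share of lower genes was near the share among all genes.

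The effect of NICD1/Akt was then compared between stages, in a fit of all 12 libraries with TMM scaling. It was lower at 3 weeks than at 2 weeks for 16 of 49 members and higher for 0. Of all 13829 genes, 2180 (15.8%) were called lower and 2078 higher. The 16 members were Psma4, Psmb1, Psmb2, Psmb3, Psmb4, Psmb5, Psmb7, Psmc1, Psmc2, Psmc5, Psmd4, Psmd6, Psmd7, Psmd11, Psmd12 and Psme3. Psmd12 had the largest difference, -0.87 ± 0.16 (edgeR adjusted p = 0.0048). On the common scale of the 12 libraries at 2 weeks it was 57.3 to 75.6 CPM after NICD1/Akt against 69.4 to 82.9 CPM, and 47.1 to 50.5 CPM against 99.4 to 103 CPM at 3 weeks. For Psmb8, Psmb9 and Psmb10 the differences were 0.34 ± 0.34, 0.70 ± 0.49 and -0.83 ± 0.39, and they were not called (edgeR adjusted p = 0.44, 0.28 and 0.12). This count depended on the libraries and the scaling. With 1 library left out it was 5 to 25 (7 without the library labelled control 32, and 25 without library 35). Without library 33, 5 members were lower and 2 higher, where 1203 of all 14004 genes were higher and 1201 lower. The 2 higher members were among Psmb8, Psmb9, Psmb10, Psme1, Psme2, Psme2b and Psmc3ip, as 0 of the other members were higher. The lack of a higher call among these genes therefore depended on library 33. With library size alone the count was 2, both higher, where 3520 of all 13829 genes were higher and 297 lower.

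Some members also differed between the 2 sets of controls. Between the sets of 3 and 2 weeks, 5 members were higher in controls (Psmc3ip, Psme3, Psmg2, Psmd12 and Psmd8) and 4 lower (Psmb9, Psmb5, Psmb8 and Psme1), where 17.4% of all genes were higher and 20.4% lower. Of these members, only Psmd12, Psme3 and Psmb5 were also called for the difference between stages. Psmb5 was 43.6, 44.9 and 48.1 CPM in controls of 2 weeks and 22.5, 21.4 and 23.2 CPM in those of 3 weeks on the common scale (-1.03 ± 0.08, edgeR adjusted p = 1.9e-05), and it differed likewise between the NICD1/Akt groups (38.2 to 41.7 against 14.2 to 15.1 CPM, -1.43 ± 0.08). Psmb8 was 37.5, 41.96 and 36.6 CPM in controls of 2 weeks and 26.8, 21.2 and 24.7 CPM in those of 3 weeks (-0.68, edgeR adjusted p = 0.048), and Psmb9 was 21.2, 23.4 and 19.3 CPM against 9.32, 11.5 and 8.17 CPM (-1.14, edgeR adjusted p = 0.028). The calls of Psmb8, Psmb9 and Psme1 were all lost when control library 30, 31, 10 or 12 was left out, where 1 member was lower. The levels of Psmb8 at 3 weeks in NICD1/Akt livers, 40.8 to 45.6 CPM on this scale, were thus close to those of the controls of 2 weeks. When the livers of 3 weeks were set against all 6 controls, Psmb8, Psmb9 and Psme2 were no longer called and 0 members were higher, with 37 lower. Of all 13600 genes tested in that setting, 3326 were higher and 3498 lower. Psmc3ip was 0 to 1.16 CPM in controls of 2 weeks and 6.67 to 7.85 CPM in those of 3 weeks (3.74 ± 0.72).

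Between NICD1/Akt livers of 3 and 2 weeks, 2 members were higher (Psmc3ip and Psmg2) and 21 lower on the TMM scale, where 11.1% of all genes were higher and 17.4% lower. The median was -0.31 over the members and -0.00 over all genes. Among the members called, Psmb10 had the lowest value after Psmb5 (-1.04 ± 0.28, edgeR adjusted p = 0.019), which was 61.0, 29.0 and 26.1 CPM in libraries 33, 34 and 35 and 18.2, 19.5 and 18.7 CPM at 3 weeks. Psmb8 and Psmb9 were not called here (-0.33 and -0.44). With library size alone 4 members were higher and 1 lower, where 3435 of all 13829 genes were higher and 940 lower.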

How the data were processed

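RNA of 12 mouse liver libraries was measured with a stranded poly(A) kit. The authors deposited unnormalized read counts for every gene, as 1 table per stage. The methods describe HTSeq counts of STAR alignments (mm10), whereas GRCm39, STAR 2.7 and Subread 2.0.6 stand in the processing notes of the submitters. This was not settled, so no coordinates are given for the counted genes, and the promoters carry those of RefSeq. Gene IDs were matched without version to GENCODE M21, for 21573 of 21807 IDs.

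Fold changes (log2), CPM and tests came from edgeR 4.0.16 under R 4.3.3 (TMM, filterByExpr, glmQLFit, glmQLFTest, Benjamini-Hochberg over all genes tested, threshold 0.05). The stages were fitted separately, and CPM given within a stage use its TMM factors. Comparisons between stages use a fit of all 12 libraries in 4 groups and the CPM of that scale. Count ratios were tested with exact permutations within stage. Replicates were compared by chi-square per gene (4.98 to 136). No limit was set for calling a pair a repeat, so these values do not show whether libraries share a mouse. Alternatives were DESeq2 1.42.0, limma-voom 3.58.1, the likelihood ratio test, other scalings and filters, all 6 controls, all 12 libraries in 1 fit, and leaving out each library. Scripts were tested on simulated data.

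Named genes were the catalytic subunits, Psme1 to Psme4, the highest and lowest member of each role at 3 weeks, every member called at 2 weeks or for the difference between stages, members called against the direction of their role, any gene the CPM rule removed, and up to 4 genes of each other list with the smallest adjusted p. Further names were chosen after their values were seen. The members, lists and alternatives were chosen with earlier results of these data known. Some genes of the lists are not reported here.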

Additional observations from a re-analysis of the deposited data

Results flagged for a closer look

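The effect of NICD1/Akt differed between 3 and 2 weeks for 16 members by the test of the difference itself (edgeR, adjusted p under 0.05, TMM scaling, fit of 12 libraries). The differences in log2 fold change, 3 weeks minus 2 weeks, were -0.87 for Psmd12, -0.78 for Psmd4, -0.70 for Psmc5, -0.69 for Psmd11, -0.56 for Psmc1, -0.56 for Psmc2, -0.52 for Psma4, -0.49 for Psmb7, -0.48 for Psmd7, -0.48 for Psme3, -0.47 for Psmb4, -0.45 for Psmb1, -0.45 for Psmb2, -0.43 for Psmd6, -0.40 for Psmb5 and -0.38 for Psmb3. With scaling by library size alone, none of the calls was lower and 2 members were called higher, where 3520 of all 13829 genes were higher. Stage cannot be told apart from sex and other differences between the sets of libraries, and the library labelled control 32 is among the controls of 2 weeks.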

How the results depend on the processing

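At 3 weeks, 3 higher members became 24 with library size alone, 6 with upper quartile factors, 5 with a minimum of 10 CPM and 0 against all 6 controls, and 37 lower members became 0 with library size alone. With 1 library left out there were 2 to 4 higher and 32 to 37 lower members. Of all genes called at 3 weeks, 54.1% were higher with TMM, 87.6% with library size alone and 62.7% with upper quartile factors. The 16 members called for the difference between stages became 9 with the likelihood ratio test, 2 with library size alone, 3 with upper quartile factors, 10 with a minimum of 10 CPM and 5 to 25 with 1 library left out. Between stages, the calls in controls were 5 to 13 and those in NICD1/Akt livers 11 to 30 with 1 library left out, the latter being 5 with library size alone. Library size alone turned the direction at 3 weeks to 0.43 for Psma2, 0.077 for Psma4, 0.14 for Psmb1, 0.13 for Psmb10, 0.22 for Psmb2, 0.22 for Psmb3, 0.19 for Psmb4, 0.22 for Psmb5, 0.34 for Psmb6, 0.083 for Psmb7, 0.033 for Psmc1, 0.072 for Psmc2, 0.48 for Psmc3, 0.15 for Psmc5, 0.39 for Psmd1, 0.53 for Psmd13, 0.11 for Psmd6, 0.26 for Psmd7, 0.26 for Psmd9, 0.39 for Psme3 and 0.055 for Psme4, and at 2 weeks to 0.062 for Psma2, 0.045 for Psmb2, 0.040 for Psmb4, 0.0076 for Psmb5, 0.048 for Psmb6, 0.011 for Psmc2, 0.080 for Psmc3, 0.13 for Psmd1, 0.017 for Psmd12, 0.098 for Psmd13, 0.13 for Psmd4, 0.12 for Psmd7 and 0.041 for Psmg3. Against all 6 controls, values turned at 3 weeks to -0.27 for Psme1 and -0.10 for Psmg4, and at 2 weeks to 0.24 for Psmb5, -1.14 for Psmc3ip, -0.016 for Psmc5, 0.049 for Psmd9 and -0.27 for Psme3. In 1 fit of 12 libraries Psme1 turned to -0.021 at 3 weeks, and with a minimum of 10 CPM Psmd1 was 0.00042 at 2 weeks. With 1 library left out, fold changes at 2 weeks that crossed 0 ranged over -0.35 to 0.34 for Psmb10, -0.30 to 0.63 for Psmb9, -0.073 to 0.11 for Psmc5, -0.21 to 0.077 for Psmd1, -0.024 to 0.14 for Psmd10, -0.18 to 0.0067 for Psmd4, -0.11 to 0.27 for Psme1, -0.21 to 0.17 for Psme2, -0.030 to 0.36 for Psme2b, -0.31 to 0.0087 for Psme4, -0.14 to 0.18 for Psmg4. The ratios Psmb10/Psmb7 and Psme1/Psme3 at 3 weeks turned to -0.044 and -0.11 against all 6 controls. With 1 library left out, Psmb9/Psmb6 was -0.13 to 0.66 at 2 weeks and 0.68 to 1.08 over both stages, and Psme1/Psme3 was -0.16 to 0.22 and 0.13 to 0.32. The cause of these changes was not tested. At 2 weeks 0 members were called under every alternative.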
